A study of Mus musculus with 19 samples.

Results

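The genes described here encode amino acid, monocarboxylate and sugar transporters, read in 3 kinds of lymphoid progenitor from mouse bone marrow. They were taken as every measured gene whose symbol begins with Slc1a, Slc2a, Slc3a, Slc6a, Slc7a, Slc16a, Slc38a or Slc43a followed by a number. Of 18607 genes, 57 matched, 1 pseudogene was left out and 56 remained. Of these, 55 encode carriers or a carrier's heavy chain, and the remaining 1, Slc7a6os, is a neighbouring gene on the opposite strand of Slc7a6 that encodes no carrier. A mean above 2 log2 CPM (read counts scaled to a common library total, on the log2 scale) in at least 1 progenitor was reached by 29 members, which are described first.

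All 19 libraries were bulk RNA-seq of sorted cells from C57BL/6 mice that carried 1 green fluorescent reporter allele. ALP (7 libraries, Tcf7EGFP/+) had low lineage markers and low Ly-6D, and were positive for Kit and IL-7Rα with high Flt3. EILP (7 libraries, Tcf7EGFP/+) are early innate lymphoid progenitors, sorted as Kit-positive cells that were bright for the reporter, had little Thy-1.2 or CD122 and carried reduced IL-7Rα. ILCp (5 libraries) are later progenitors of innate lymphoid cells, sorted as reporter-bright cells with high IL-7Rα, Kit, integrin α4β7 and Thy-1.2. ILCp 1 to 3 were Tcf7EGFP/+, whereas ILCp 4 and 5 were Plzf-cre-GFP/+, so the reporter gene differed within that group. The labels name 5 batches and do not say whether libraries came from separate mice, so the p-values speak only of spread among these libraries, part of which can be technical.

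Membrane carriers set which nutrients a lymphocyte can take up. Glucose enters through the facilitative Slc2 (GLUT) carriers, and lactate and pyruvate leave or enter with protons through members of Slc16 (MCT) that need a chaperone, basigin (Bsg) or embigin (Emb), to reach the surface. Glutamine and other small neutral amino acids enter with sodium through Slc1a5 and Slc38 carriers. Large neutral amino acids such as leucine are exchanged by light chains of Slc7, for example Slc7a5 (LAT1), each bound to the heavy chain Slc3a2 (CD98). Lymphocytes are known to raise several of these carriers when they are activated.

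Flt3, Tcf7 and Thy1, from a list of 9 sort markers, followed the labels, and levels of the other markers on that list are not shown. Flt3 averaged 10.21, 7.34 and 3.25 log2 CPM in ALP, EILP and ILCp, Tcf7 1.06, 10.51 and 9.24, and Thy1 −2.84, 0.07 and 5.30. Correlations between libraries over all genes were 0.783 to 0.949 and no 2 libraries were identical. The number of reads per library is unknown because only log2 CPM were deposited. For many genes, libraries of a batch share the lowest value. A library is at the zero level of a gene here if its value is negative, lowest in its batch and shared with another library there. That level differs between genes and batches, and a library alone at the lowest value is not counted. No fold is given against a group at the zero level.

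Summed transporter RNA overlapped between the 3 progenitors. The summed level of the 56 members was 1733 to 2703 CPM in ALP (median 2144), 1961 to 2312 in EILP (median 2136) and 1940 to 2256 in ILCp (median 2217). In a limma model of all genes with batch as a term, called at a Benjamini-Hochberg adjusted p below 0.05, 0 members were higher and 1 was lower in EILP than in ALP, where 5.05% of all genes passed (2.25% higher and 2.79% lower). Between ILCp and EILP 0 of 56 passed, against 3.21% of all genes (1.76% higher and 1.46% lower). Between ILCp and ALP 0 were higher and 1 was lower, against 8.24% of all genes (3.86% higher and 4.39% lower). The 1 call among 56 members in each of those comparisons is 1.79% of the members.

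The members called were Slc16a11 (EILP below ALP) and Slc43a3 (ILCp below ALP). At an unadjusted p below 0.05, limma found 8 members between EILP and ALP (5 higher, 3 lower), 6 between ILCp and EILP (3 higher, 3 lower) and 10 between ILCp and ALP (6 higher, 4 lower). These are 14.3%, 10.7% and 17.9% of the 56 members, beside 17.5%, 16.6% and 20.9% of all genes at the same threshold. Among the 29 members above the level the shares were 24.1%, 20.7% and 27.6%, and among the other 27 they were 3.70%, 0% and 7.41%. The former lie above and the latter below those of all genes. All genes were not split by that level, so these shares have no matching background. The split used the highest group mean, which can itself favour members that differ between groups. No conclusion is drawn from the contrast. Median log2 differences over the 56 members were 0.06, 0.01 and 0.08 in the order EILP versus ALP, ILCp versus EILP and ILCp versus ALP, beside 0.00, −0.08 and −0.03 over all genes. With median centring of each library, the calls of all genes moved from 419 higher and 520 lower to 804 and 395 between EILP and ALP, from 327 and 271 to 279 and 390 between ILCp and EILP, and from 718 and 816 to 813 and 584 between ILCp and ALP. Comparisons with a group in common share its libraries.

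Absence of a call did not always mean a narrow bound. Among the 29 members above the level, the 95% limma interval lay wholly within 1 log2 unit of zero for 10 members between EILP and ALP, 10 between ILCp and EILP and 9 between ILCp and ALP. The median distance from the estimate to the end of the interval was 0.86, 1.01 and 0.98 log2 units. For the others a change of 2-fold or more lay inside the interval or beyond it. An SD below 1 log2 unit in every group was seen for 15 of the 29, and an SD of 2 or more in at least 1 group for 11.

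**Figure D1:**
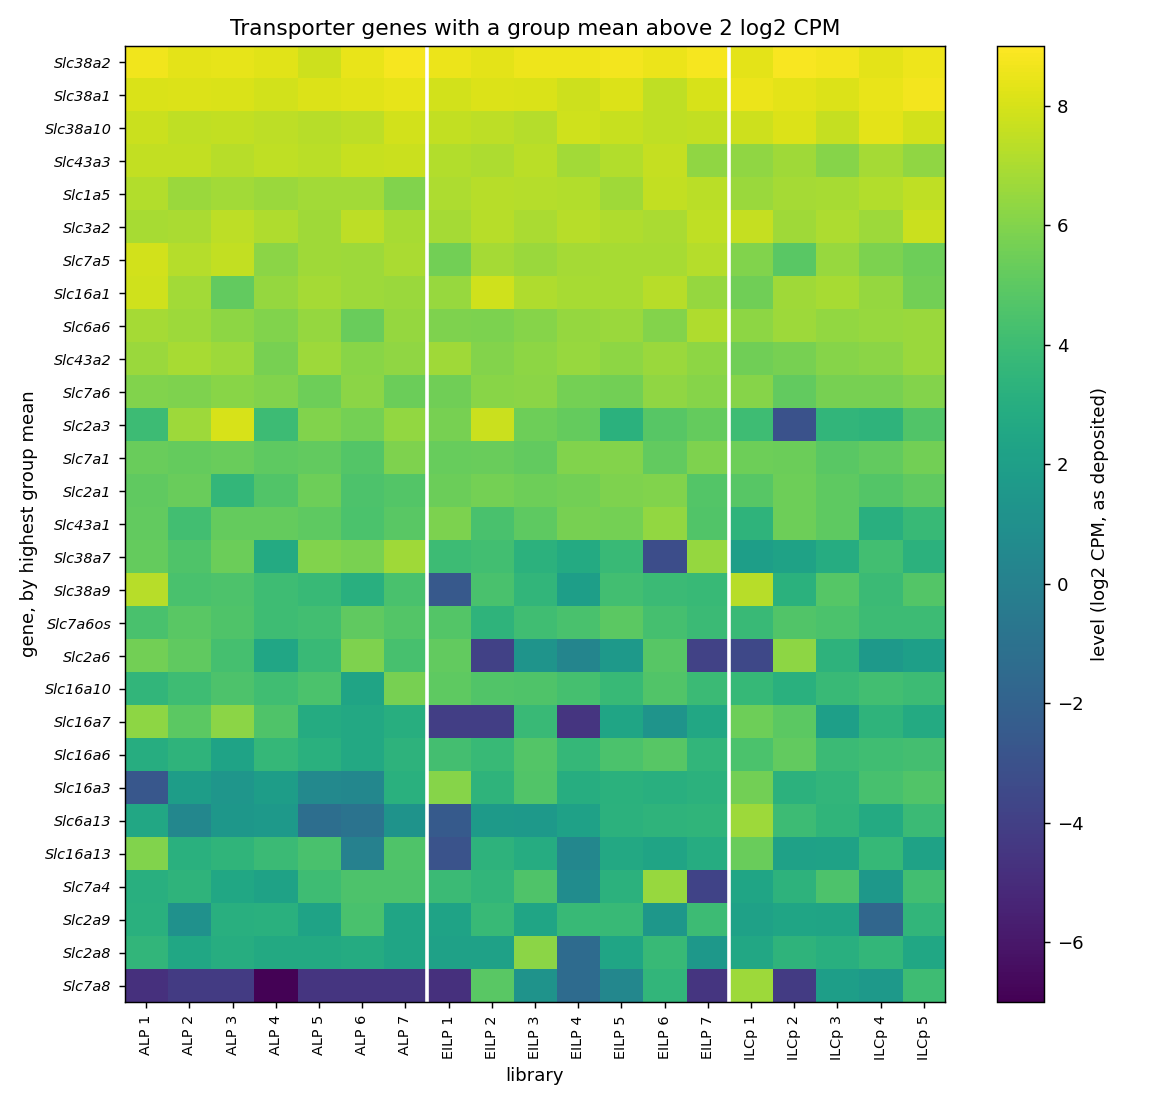
Level (log2 CPM, colour) of the transporters whose mean exceeded 2 log2 CPM in at least 1 group, in each of the 19 libraries, arranged by group. Slc7a8 is near the zero level in every ALP library, and 15 of the 29 members shown have an SD below 1 in every group.

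**Figure D2:**
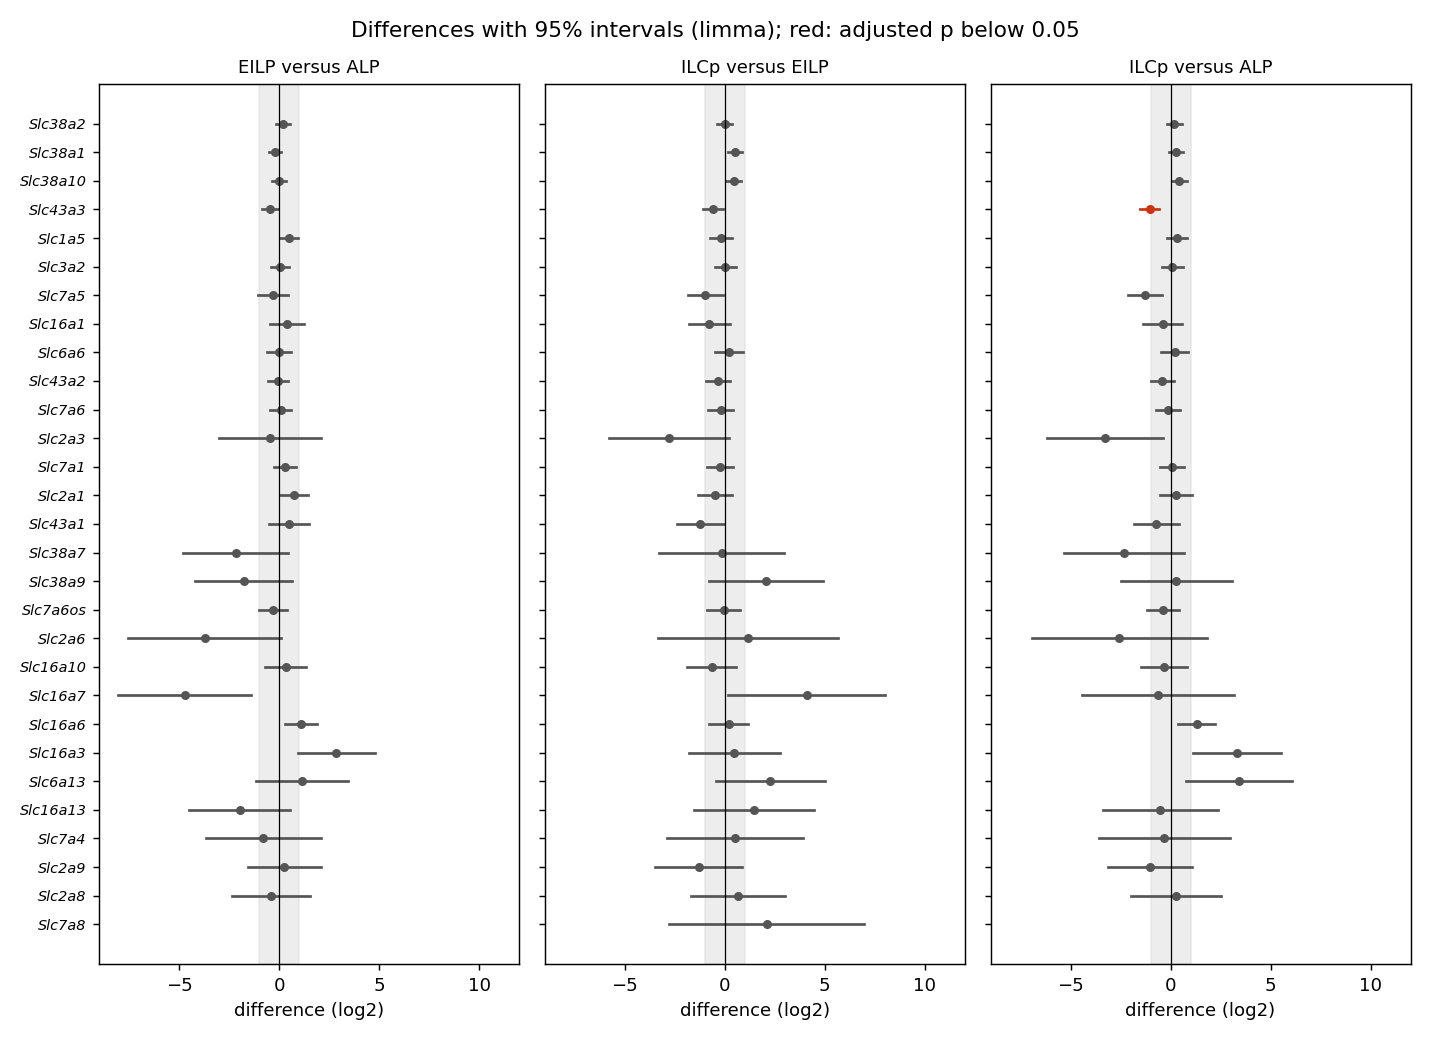
Difference in log2 units (point) with its 95% interval (line) from limma for the same genes in the 3 comparisons, with the band of 1 log2 unit on either side of zero shaded. Slc43a3 (−1.04, ILCp versus ALP) is in red as the only gene shown with an adjusted p below 0.05. Slc7a8 has no point against ALP because ALP lay at its zero level.

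Slc43a3, a carrier of purine nucleobases in the same family as the leucine carriers Slc43a1 and Slc43a2, was the only member above the level that passed. The gene lies at chromosome 2, 84936579 to 84958509 on the plus strand (GRCm38), protein-coding and overlapped by no other coding gene. Its ALP libraries spanned 7.29 to 7.71 log2 CPM with a median of 7.52, and its EILP libraries 6.35 to 7.57 with a median of 7.14. ILCp 1 to 5 were at 6.33, 6.69, 6.11, 6.87 and 6.34. Every ILCp library was below every ALP library, and EILP overlapped both.

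Slc43a3 fell by 1.04 ± 0.23 log2 units (SE, 95% interval −1.53 to −0.56) from ALP to ILCp, with a limma adjusted p of 0.00889. The difference was −0.45 between EILP and ALP (adjusted p 0.253 in limma) and −0.59 between ILCp and EILP (adjusted p 0.213 in limma), neither of which passed. Without EILP 7 the EILP and ALP difference was −0.24 (limma adjusted p 0.538). Within batches 1, 2 and 4, ILCp minus ALP was −1.23, −0.72 and −1.04. The 2 Plzf-cre-GFP/+ libraries, ILCp 4 and 5, lay on either side of the group mean of 6.47. Leaving out any 1 library kept the call, with differences from −1.17 to −0.94, and leaving out batch 4, which holds 3 of the 5 ILCp, ended it (−0.996, limma adjusted p 0.131).

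The family members Slc43a1 and Slc43a2, carriers of branched chain and aromatic amino acids, differed from each other in the order of their means. Slc43a1 averaged 4.88 ± 0.41 in ALP, 5.38 ± 0.72 in EILP and 4.16 ± 1.03 in ILCp (SD, n = 7, 7 and 5), and its ILCp libraries overlapped the other groups. The difference between ILCp and EILP was −1.23 (adjusted p 0.274 in limma). Its sign differed between batches, at −2.42, 1.06 and −1.67 within batches 1, 2 and 4. It was −1.89 without ILCp 2 and −0.84 without ILCp 1 (limma adjusted p 0.0926 and 0.569). Slc43a2 was 6.44 ± 0.40, 6.39 ± 0.23 and 6.04 ± 0.42 in the same order, a difference of −0.40 between ILCp and ALP with an adjusted p of 0.45 in limma. Within batches 1, 2 and 4 it was −1.03, −1.10 and 0.61, and it was −0.16 without ILCp 1 (limma adjusted p 0.824).

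Some markers of other cell types differed between the same groups. Their counts stand beside calls for 5.05% of all genes (EILP versus ALP), 3.21% (ILCp versus EILP) and 8.24% (ILCp versus ALP). Of 8 plasmacytoid dendritic cell markers, 5 were lower in ILCp than in ALP and 5 were lower in EILP than in ALP, and their summed level was 1172 to 2128 CPM in ALP, 756 to 1212 in EILP and 287 to 733 in ILCp. Siglech was at the zero level in 3 EILP and 3 ILCp libraries. Of 13 B lineage markers 6 were lower in EILP and 6 in ILCp than in ALP, with sums of 191 to 1161, 58.7 to 110 and 31.0 to 106 CPM, and Pax5 and Vpreb2 lay at the zero level in all 7 EILP and all 5 ILCp libraries. In ALP, Pax5 was at that level in 6 of 7 libraries and Vpreb2 in 1. Their part in the differences of Slc43a3 and Slc16a11 was not tested. In bulk libraries, fewer cells of a type and less RNA per cell cannot be told apart.

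Markers of cells outside the sort also varied between libraries. Of 16 myeloid and granulocyte markers 1 was higher in EILP than in ALP 4 were lower in ILCp than in EILP and 2 were lower in ILCp than in ALP, and the sum ran from 567.7 to 7253 CPM in ALP, 1677 to 44678 in EILP (highest in EILP 2) and 93.3 to 1740 in ILCp. Of 13 bone stroma markers 5 were higher in EILP than in ALP and 2 were lower in ILCp than in EILP, with sums of 127 to 199, 176 to 1663 (highest in EILP 5) and 154 to 173 CPM. Of 12 T lineage markers 1 was higher in EILP and 3 in ILCp than in ALP. Of 15 erythroid and megakaryocyte markers 1 was higher in EILP and 1 in ILCp than in ALP and 1 was lower in ILCp than in EILP, with sums of 97.9 to 431, 140 to 2122 and 242 to 2106 CPM. How far such RNA adds to a transporter level was not tested.

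**Figure D3:**
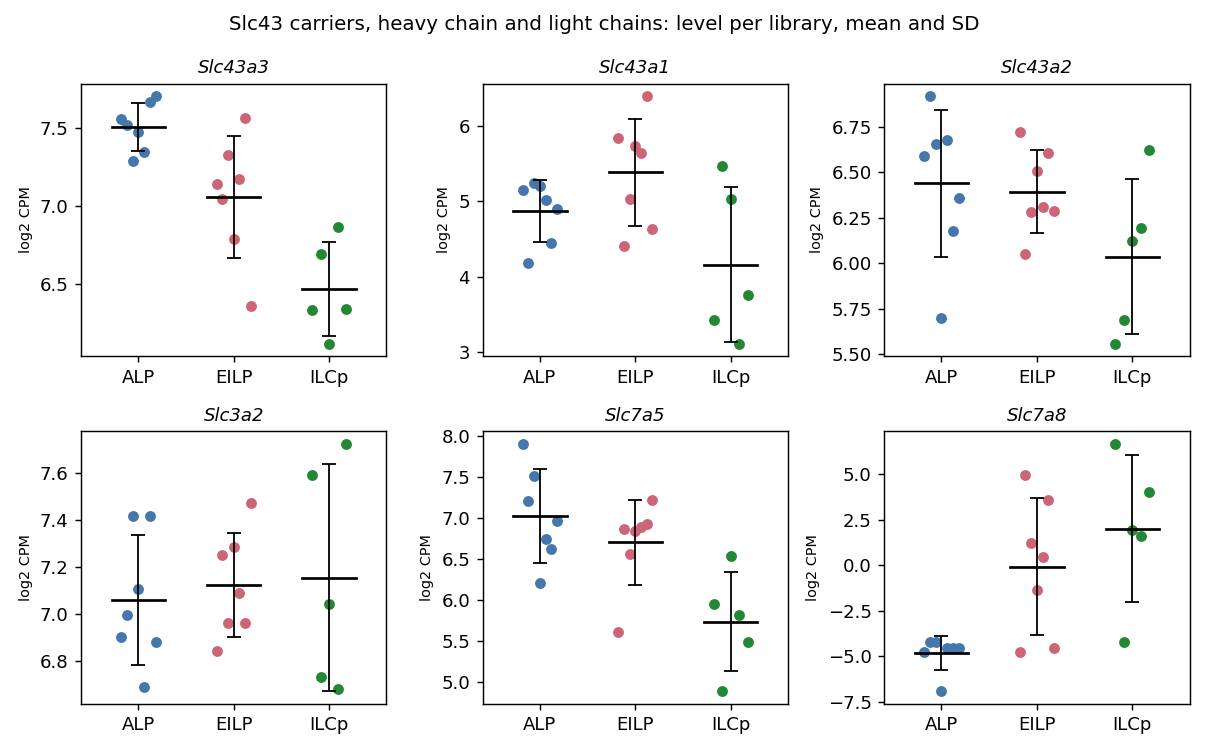
Level (log2 CPM) per library for 3 Slc43 carriers, the heavy chain Slc3a2 and the light chains Slc7a5 and Slc7a8, with the group mean (bar) and SD (whiskers) for 7 ALP, 7 EILP and 5 ILCp libraries. Slc43a3 in ILCp (6.11 to 6.87) lies below all ALP libraries (7.29 to 7.71), and Slc3a2 overlaps across groups.

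The group means of the heavy chain of system L lay closer together than those of its main light chain. Slc3a2 averaged 7.06 ± 0.28, 7.12 ± 0.22 and 7.15 ± 0.48 log2 CPM (SD) in ALP, EILP and ILCp, and the 95% interval of the difference between EILP and ALP was −0.39 to 0.52. Slc7a5 (LAT1), the leucine and aromatic amino acid exchanger, averaged 7.03 ± 0.57, 6.71 ± 0.52 and 5.74 ± 0.61 log2 CPM. In ALP it ranged from 6.21 to 7.91 with a median of 6.96, and in EILP from 5.61 to 7.22 with a median of 6.87.

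The 5 ILCp libraries read Slc7a5 at 5.95, 4.89, 6.54, 5.82 and 5.49 log2 CPM. ILCp 3 overlapped the ALP range and the others lay under it. The difference from ALP was −1.29 (95% interval −2.14 to −0.43, limma adjusted p 0.0624), which did not pass, and within batches 1, 2 and 4 it was −1.96, −2.47 and −0.25. Slc7a5 passed without ALP 4 (adjusted p 0.0340 in limma), without EILP 1 (adjusted p 0.0154 in limma) or without ILCp 3 (adjusted p 0.0440 in limma), and without ILCp 2 its difference was −0.81 (adjusted p 0.367 in limma). Slc7a5, Slc7a8, Slc6a13, Slc7a11, Slc2a3, Slc16a3, Slc16a6 and Slc16a7 are given by library although none of them passed, a choice made after their values were seen.

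Slc7a8 (LAT2), a broad neutral amino acid exchanger, was only just above the level, with a mean of 2.00 in ILCp, beside Slc2a8 (3.06), the member next above it, and Slc38a6 (1.21), the member next below. Its 7 ALP libraries lay between −6.92 and −4.22 log2 CPM, 6 of them tied at the zero level and ALP 4 lowest, and EILP ranged from −4.78 to 4.93 with a median of 0.44. ILCp 1 to 5 were at 6.65, −4.22, 1.94, 1.62 and 4.02. EILP and ILCp libraries therefore ranged from near the zero level to well above it, with EILP 4 (−1.38) in between. Against ALP, limma gave adjusted p of 0.210 for EILP and 0.0742 for ILCp. Against ALP, ILCp passed without EILP 2, EILP 7 or ILCp 2 (adjusted p 0.0496, 0.0495 and 0.00858 in limma).

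Other light chains and cationic amino acid carriers showed no call. Slc7a6, a y+L light chain, averaged 5.87 ± 0.32, 5.95 ± 0.34 and 5.73 ± 0.36 log2 CPM in ALP, EILP and ILCp, and Slc7a1 (CAT1), the main arginine and lysine carrier of many cells, 5.25 ± 0.35, 5.56 ± 0.39 and 5.32 ± 0.28. Slc7a4 varied more, at 3.50 ± 0.93, 2.70 ± 3.34 and 3.19 ± 1.24. Slc7a6os averaged 4.56, 4.25 and 4.18 log2 CPM. Its gene and that of Slc7a6 lie 2010 bases apart on opposite strands, and these kits do not mark strand.

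Sodium-coupled carriers of small neutral amino acids had the largest summed CPM of the families, a sum not corrected for gene length. The 8 measured Slc38 carriers summed to a median of 859 CPM in ALP, 830 in EILP and 1078 in ILCp. Slc38a2 (SNAT2), which is known to respond to amino acid shortage, averaged 8.39 ± 0.32, 8.59 ± 0.14 and 8.58 ± 0.21 log2 CPM, with a 95% interval of −0.13 to 0.53 between EILP and ALP. Slc38a1 (SNAT1), a glutamine carrier, averaged 8.16 ± 0.17, 7.94 ± 0.25 and 8.45 ± 0.22. It differed by 0.51 (95% interval 0.14 to 0.87) between ILCp and EILP, with an adjusted p of 0.129 in limma, and the highest EILP library (8.18) just overlapped the lowest ILCp library (8.17).

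Slc38a10, a less studied family member, averaged 7.52 ± 0.22, 7.52 ± 0.19 and 7.96 ± 0.29 log2 CPM, a difference of 0.44 between ILCp and EILP (adjusted p 0.247 in limma). Slc38a9, a lysosomal arginine sensor for mTORC1, averaged 4.51 ± 1.31, 2.74 ± 2.46 and 4.80 ± 1.54, and Slc38a7, a lysosomal glutamine carrier, 5.21 ± 1.25, 3.04 ± 3.00 and 2.89 ± 0.87. Both had wide intervals, and for Slc38a7 the 95% interval of EILP versus ALP ran from −4.81 to 0.47. Without EILP 6 the Slc38a7 difference was −0.24 (limma adjusted p 0.891). Slc1a5 (ASCT2), the glutamine exchanger, averaged 6.67 ± 0.37, 7.19 ± 0.26 and 6.999 ± 0.325 log2 CPM, and the difference of 0.52 between EILP and ALP had an adjusted p of 0.206 in limma. Within batches 1, 2, 4 and 5 it was −0.12, 0.56, 0.12 and 0.95.

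In Slc6, which couples transport to sodium and chloride, 2 of 7 measured members exceeded the level. Slc6a6, the taurine carrier, averaged 6.29 ± 0.50, 6.28 ± 0.46 and 6.49 ± 0.14 log2 CPM. Slc6a13 (GAT2), a carrier of GABA and taurine, ranged from −1.20 to 2.59 in ALP with a median of 1.23, and from −2.46 to 3.48 in EILP with a median of 2.17. ILCp 1 to 5 were at 6.68, 3.97, 3.48, 2.81 and 3.93. ILCp did not overlap ALP, and the difference of 3.43 (95% interval 0.79 to 6.07) had an adjusted p of 0.112 in limma. Without ILCp 1, the highest library, the difference was 2.17 (limma adjusted p 0.388). Without EILP 1, Slc6a13 passed between ILCp and ALP (adjusted p 0.0144 in limma) and between EILP and ALP (adjusted p 0.0377 in limma).

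**Figure D4:**
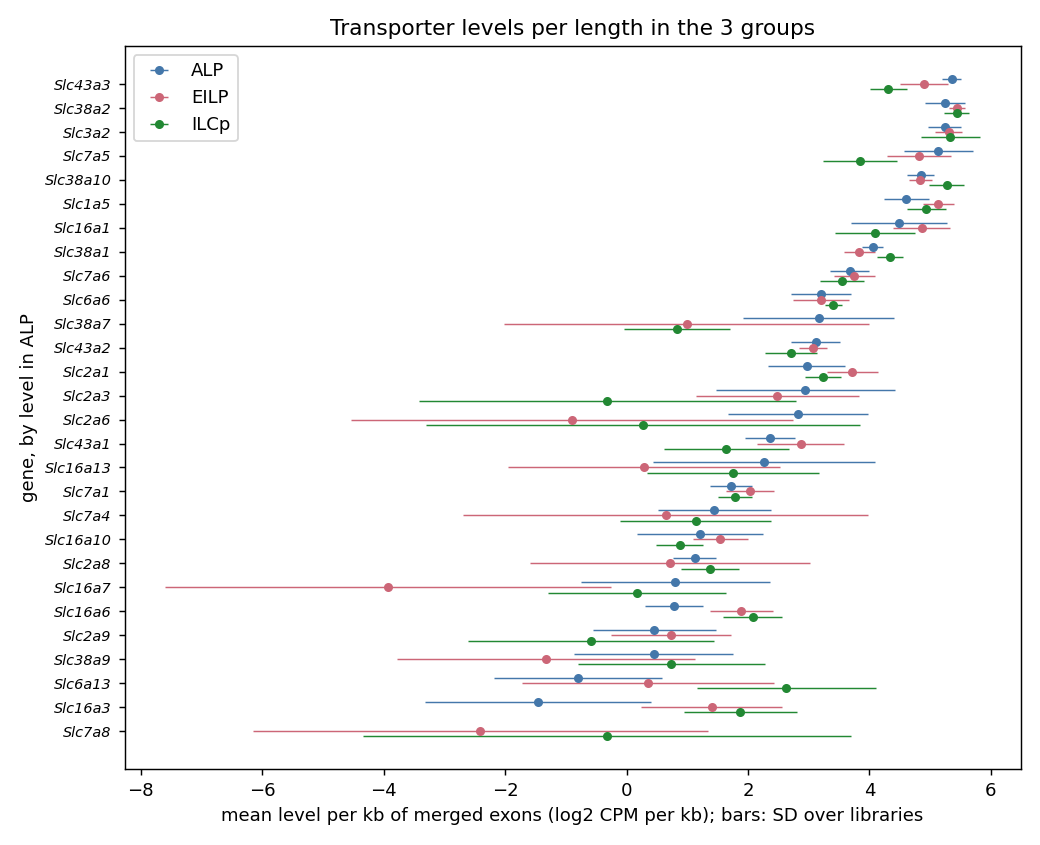
Level per kilobase of merged annotated exons (log2 CPM per kb) of the carriers and heavy chain above the level, by group, with bars for the SD over libraries. This sets carriers and the heavy chain roughly beside each other. Slc43a3 leads in ALP at 5.35, and Slc38a2 leads in EILP at 5.44 and in ILCp at 5.44. Slc7a8 has no ALP point.

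Levels divided by the merged length of all annotated exons of a gene allow a rough comparison between genes. That length can exceed the length of the transcripts present, so the order depends on the annotation. In ALP the leading members were Slc43a3 at 40.8 CPM per kb, Slc38a2 at 37.9, Slc3a2 at 37.8 and Slc7a5 at 35.1, which is 5.35 down to 5.13 on the log2 scale, so these neighbours lie within the largest of their SDs (0.57, Slc7a5). In EILP Slc38a2 led at 43.5 CPM per kb, followed by Slc3a2 at 39.5, Slc1a5 at 35.0 and Slc43a3 at 29.8. In ILCp the leaders were Slc38a2 at 43.3, Slc3a2 at 40.3, Slc38a10 at 38.7 and Slc1a5 at 30.7. Slc43a3 ranked 1 in ALP, 4 in EILP and 6 in ILCp.

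Among the hexose carriers, 5 of 11 measured members exceeded the level and none was called. Slc2a1 (GLUT1) averaged 4.78 ± 0.63, 5.52 ± 0.42 and 5.04 ± 0.30 log2 CPM in ALP, EILP and ILCp, and the difference of 0.74 between EILP and ALP (95% interval 0.04 to 1.45) had an adjusted p of 0.26 in limma. Slc2a3 (GLUT3), the high-affinity glucose carrier, ranged from 3.94 to 8.01 in ALP (median 5.99) and from 3.21 to 7.74 in EILP (median 5.22). ILCp 1 to 5 were at 4.03, −2.94, 3.56, 3.39 and 4.67. ILCp 2 alone was far below the rest: ILCp minus ALP was −3.26 with it (limma adjusted p 0.176) and −0.16 without it (limma adjusted p 0.939).

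Slc2a6, Slc2a8 and Slc2a9 varied more between libraries in at least 1 group. Slc2a6 averaged 4.51 ± 1.16, 0.79 ± 3.64 and 1.95 ± 3.57 log2 CPM, Slc2a8 2.80 ± 0.36, 2.41 ± 2.31 and 3.06 ± 0.48, and Slc2a9, a urate carrier, 2.81 ± 1.02, 3.07 ± 0.99 and 1.76 ± 2.03. The Slc2 members together summed to medians of 142, 139 and 74.4 CPM, with overlapping ranges.

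**Figure D5:**
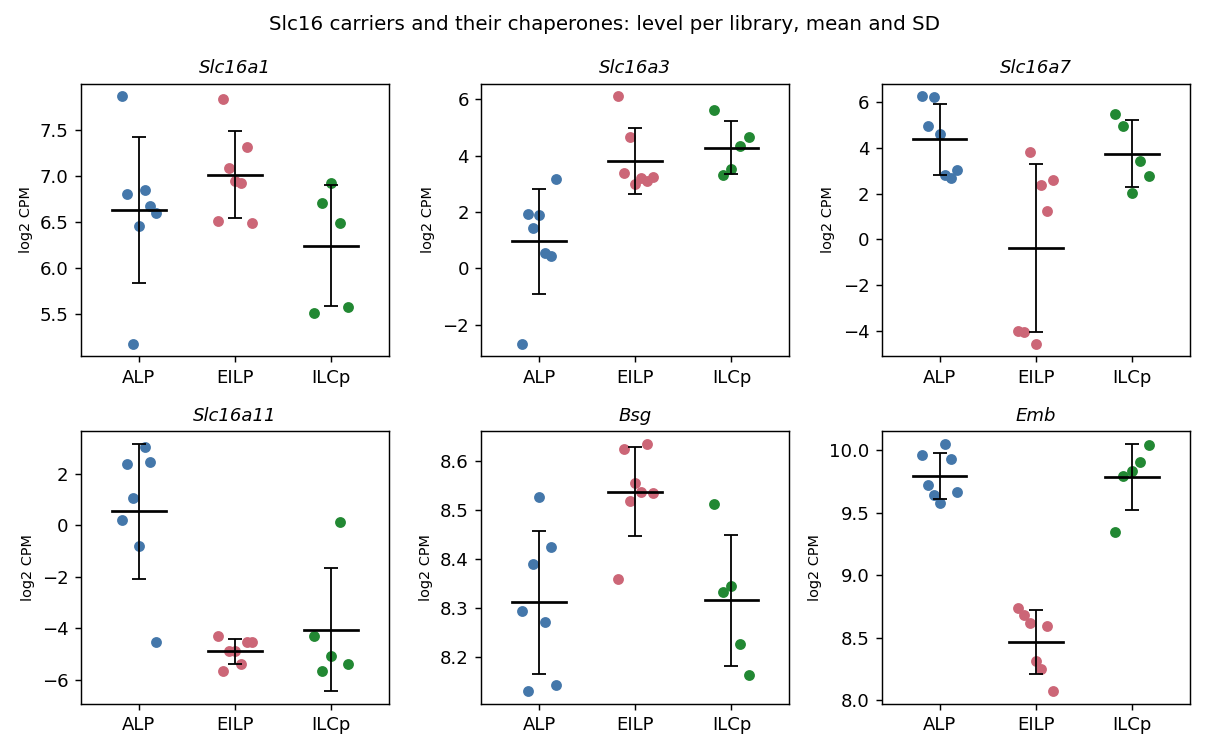
Level (log2 CPM) per library for 4 Slc16 genes and the chaperones Bsg and Emb, with the group mean (bar) and SD (whiskers). Emb in EILP (8.07 to 8.74) lies below all ALP and ILCp libraries (9.35 and above), and Slc16a11 is near the zero level in all 7 EILP libraries.

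The monocarboxylate carriers Slc16a1, Slc16a3 and Slc16a7 differed in pattern. Slc16a1 (MCT1) averaged 6.63 ± 0.79, 7.01 ± 0.47 and 6.24 ± 0.66 log2 CPM in ALP, EILP and ILCp, with overlapping libraries. Slc16a3 (MCT4), best known for lactate export in glycolytic cells, ranged from −2.68 to 3.18 in ALP (median 1.42) and from 2.98 to 6.12 in EILP (median 3.26). ILCp 1 to 5 were at 5.61, 3.30, 3.52, 4.33 and 4.66. ILCp did not overlap ALP, and EILP overlapped it only through ALP 7, at 3.18.

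The Slc16a3 difference was 2.86 (95% interval 0.94 to 4.78, limma adjusted p 0.0893) between EILP and ALP and 3.33 (95% interval 1.14 to 5.52, limma adjusted p 0.0600) between ILCp and ALP. Batch 1 gave 8.79 between EILP and ALP, and batches 2, 4 and 5 gave 1.71, 1.31 and 1.81. Between ILCp and ALP batch 1 gave 8.28, and batches 2 and 4 gave 1.63 and 2.28. Without ALP 1 the differences were 1.74 for EILP and 1.97 for ILCp (limma adjusted p 0.107 and 0.0842). Slc16a3 passed without ALP 7 in both comparisons (adjusted p 0.0482 for EILP and 0.0394 for ILCp, limma) and without EILP 1 between ILCp and ALP (adjusted p 0.0284, limma).

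Slc16a7 (MCT2), a high-affinity pyruvate and lactate carrier, ranged from 2.68 to 6.26 log2 CPM in ALP (median 4.60) and from −4.54 to 3.83 in EILP (median 1.26), and ILCp 1 to 5 were at 5.49, 4.96, 2.02, 3.42 and 2.77. EILP 1, 2 and 4 lay near −4 log2 CPM and the other EILP libraries between 1.26 and 3.83. EILP 3 (3.83) and EILP 4 (−4.54), the whole of batch 3, lie evenly on either side of the EILP mean of −0.36. In values that appear adjusted for batch, the gap between these libraries is informative and their own levels are not. The difference was −4.72 between EILP and ALP (adjusted p 0.107 in limma) and 4.09 between ILCp and EILP (adjusted p 0.279 in limma). Neither passed. Without EILP 1 these were −3.50 and 2.54, and without EILP 2 −3.33 and 2.73. Within batches 1, 2, 4 and 5 EILP minus ALP was −10.27, −9.64, −2.20 and −0.91, and within batches 1, 2 and 4 ILCp minus EILP was 9.50, 9.01 and 0.34.

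The chaperone Emb passed where its carriers did not. It ranged from 9.58 to 10.05 log2 CPM in ALP (median 9.72), from 8.07 to 8.74 in EILP (median 8.59), and was at 9.35, 9.80, 9.83, 9.91 and 10.04 in ILCp 1 to 5. No EILP library overlapped ALP or ILCp. Emb fell by 1.33 ± 0.15 log2 units from ALP to EILP (limma adjusted p 3.26e-05) and rose by 1.32 ± 0.17 from EILP to ILCp (limma adjusted p 0.000801). Bsg, the main partner of MCT1 and MCT4, averaged 8.31, 8.54 and 8.32 log2 CPM and did not pass in any comparison.

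Slc16a11 (MCT11), a less studied member of the monocarboxylate carrier family, was called although it stayed under the level in every group. ALP 1 to 7 were at 0.20, 2.37, 1.06, −0.80, 3.02, 2.46 and −4.55 log2 CPM, ALP 7 being at the zero level. All 7 EILP libraries were at the zero level (−5.65 to −4.31, median −4.89). ILCp 1 to 5 were at −4.31, −5.65, −5.06, 0.12 and −5.39, of which 3 were at the zero level. ALP was thus above EILP in all libraries but ALP 7. In limma the adjusted p was 0.0223 between EILP and ALP, and 0.0742 between ILCp and ALP. Without ALP 1, ALP 6, EILP 2, EILP 5, EILP 6 or EILP 7 the adjusted p for EILP versus ALP was 0.05004, 0.0507, 0.0767, 0.0673, 0.0547 and 0.0556 in limma, so the call was lost without any 1 of these 6 libraries. Between ILCp and ALP it passed without ALP 7 (adjusted p 0.0134 in limma) or without ILCp 4 (adjusted p 0.0223 in limma).

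Its neighbour Slc16a13 ends 371 bases away on the opposite strand, and it averaged 3.64 ± 1.84, 1.67 ± 2.24 and 3.13 ± 1.41 log2 CPM in ALP, EILP and ILCp, with no call. Slc16a10 (TAT1), an aromatic amino acid carrier, averaged 4.09 ± 1.03, 4.42 ± 0.45 and 3.76 ± 0.38. Slc16a6 (MCT7), a ketone body carrier, ranged from 2.29 to 3.63 in ALP (median 3.16) and from 3.56 to 4.84 in EILP (median 4.22), and ILCp 1 to 5 were at 4.44, 5.16, 3.90, 4.12 and 4.21. Slc16a6 in ILCp did not overlap ALP, yet neither its difference of 1.12 between EILP and ALP (adjusted p 0.116 in limma) nor of 1.30 between ILCp and ALP (adjusted p 0.0815 in limma) passed. Without ILCp 2 the difference between ILCp and ALP was 0.85 (limma adjusted p 0.367).

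The 27 members at or under the level reached a highest group mean of −4.71 to 1.21 log2 CPM. In 22 of them at least 10 of 19 libraries were at the zero level, which limits what their differences can show, and Slc16a11, with 11 such libraries, is one of the 22. Slc7a11 (xCT), the cystine and glutamate exchanger of the light chain group, ranged from −6.75 to −2.15 in ALP (median −4.43) and from −3.32 to 1.61 in EILP (median −1.69), and ILCp 1 to 5 were at −0.55, 1.14, 2.57, −1.54 and −2.30. ALP and ILCp overlapped, and the difference had an adjusted p of 0.0889 in limma.

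Promoters of 40 of 56 members were in the RefSeq table (GRCm38.p6, 250 bases before the start). The E-box CACGTG, on either strand, lay in 4 of 40 (10%) beside 6.86% of all genes, and TGATGNAA, the core of the amino acid response element, in 2 of 40 (5%) beside 3.91%. Neither motif overlaps the other. Slc7a11 is shown because its promoter holds TGATGNAA on each strand, in capitals, starting 66 and 47 bases before the start, and Slc16a11 because it is a called member. The 250 bases shown for Slc16a11 hold neither motif. They lie inside the gene as placed by GENCODE, which begins at 70212752, and bases before that start were not searched. Slc7a11 and Slc16a11 were both chosen after the values were seen. A match is a description of letters and not of a bound site.

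Slc7a11, chr3:50443614-50443863, minus strand: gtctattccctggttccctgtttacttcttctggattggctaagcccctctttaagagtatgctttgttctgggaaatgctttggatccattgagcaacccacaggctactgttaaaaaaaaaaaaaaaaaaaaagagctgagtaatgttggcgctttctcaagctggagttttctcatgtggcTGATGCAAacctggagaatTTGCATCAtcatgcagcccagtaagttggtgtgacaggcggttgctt
Slc16a11, chr11:70213660-70213909, plus strand: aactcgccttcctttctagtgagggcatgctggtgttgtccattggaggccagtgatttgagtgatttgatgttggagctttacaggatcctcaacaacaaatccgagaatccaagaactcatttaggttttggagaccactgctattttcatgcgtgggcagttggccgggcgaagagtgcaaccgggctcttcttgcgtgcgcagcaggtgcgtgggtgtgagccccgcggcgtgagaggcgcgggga

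Genes that use the transported nutrients were read from the same model. Of 18 genes of glucose trapping and use, 1 rose and 1 fell between ALP and EILP, 2 rose between EILP and ILCp and 5 rose between ALP and ILCp. These are 11.1%, 11.1% and 27.8% of the list, beside 5.05%, 3.21% and 8.24% of all genes. The lists below stand beside the same shares. At an unadjusted p below 0.05 in limma, those of all genes were 17.5%, 16.6% and 20.9%. Aldoa, the glycolytic aldolase, rose by 1.14 ± 0.13 to EILP (limma adjusted p 3.59e-05) and by 1.31 ± 0.15 to ILCp (limma adjusted p 3.02e-05), from 7.97 ± 0.29 log2 CPM in ALP. Pdk1, an inhibitor of pyruvate dehydrogenase, fell by 0.93 ± 0.24 from ALP to EILP.

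Hk1 (hexokinase) rose by 1.02 ± 0.21 and Txnip, which holds back glucose uptake, by 1.03 ± 0.20 between EILP and ILCp. Arrdc4, a related arrestin, rose by 2.67 ± 0.47 between ALP and ILCp, and Pkm and Eno1 passed too. These genes do not encode carriers, so their counts stand beside the transporter counts and are not a test of them.

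Of 11 genes of glutamine and glutamate use, 0 passed between ALP and EILP, with 0 at an unadjusted p below 0.05 in limma. Gclc, the catalytic subunit that begins glutathione synthesis, rose by 2.55 ± 0.32 from EILP and by 2.35 ± 0.31 from ALP in ILCp, the only gene of that list to pass. That 1 gene is 9.09% of the list in each of these comparisons. Of 15 genes of serine, proline and arginine synthesis, 2 rose between ALP and EILP (Arg1 and Pycr1), 1 fell between EILP and ILCp, and 1 rose and 2 fell between ALP and ILCp. These are 13.3%, 6.67% and 20% of the list. Phgdh, the first enzyme of serine synthesis, fell by 1.00 ± 0.17 from EILP to ILCp and by 1.40 ± 0.17 from ALP to ILCp.

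Arg1 (arginase) averaged −3.65 ± 2.19, 1.96 ± 2.88 and 7.09 ± 1.39 log2 CPM in ALP, EILP and ILCp, with 5 of 7 ALP libraries at the zero level. Pycr1, a proline synthesis enzyme, rose by 1.71 ± 0.47 from ALP to EILP. Of 14 genes of the amino acid response, Ddit4, an mTORC1 inhibitor induced by stress, rose by 1.77 ± 0.30 to EILP and 2.08 ± 0.35 to ILCp from ALP, and Atf3, a stress-induced transcription factor at the zero level in all 7 ALP libraries, passed between ILCp and ALP (−0.82 and −5.22 log2 CPM, limma adjusted p 0.0247). Calls were 7.14% of the 14 between EILP and ALP and 14.3% between ILCp and ALP. Between EILP and ILCp 0 of the 14 passed, with 2 at an unadjusted p below 0.05 in limma (14.3%, beside 16.6% of all genes).

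Of 33 genes that sense amino acids for mTORC1, 0 passed between ALP and EILP (6 at an unadjusted p below 0.05 in limma) and 0 between ALP and ILCp (6 likewise). The 6 are 18.2% of the list each time, beside 17.5% and 20.9% of all genes. Akt1s1, an mTORC1 inhibitor, fell by 1.16 ± 0.28 from EILP to ILCp. Of 5 genes of branched chain amino acid use 0 passed in any comparison, with 1, 1 and 2 at an unadjusted p below 0.05 in limma. These are 20%, 20% and 40% of a list of only 5. Of 23 other amino acid and organelle carriers, 0 passed between ALP and EILP (3 at an unadjusted p below 0.05 in limma), 2 fell between EILP and ILCp and 4 fell between ALP and ILCp. The 2 and 4 are 8.70% and 17.4% of the list, beside 3.21% and 8.24% of all genes.

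Among those other carriers, Slc25a12, the mitochondrial aspartate and glutamate carrier, fell by 2.44 ± 0.44 log2 units from EILP to ILCp, from 8.48 ± 0.35 to 6.04 ± 0.90 log2 CPM. Slc25a1, the mitochondrial citrate carrier, fell by 1.09 ± 0.26 from EILP to ILCp and by 0.99 ± 0.25 from ALP. Slc15a4, a lysosomal peptide and histidine carrier, fell by 0.96 ± 0.25 from ALP to ILCp.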

How the data were processed

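Libraries from sorted C57BL/6 bone marrow cells were prepared by SMARTer Ultra Low Input amplification followed by Nextera XT, per the labels' protocols. The submitters' processing notes list limma, edgeR, STAR 2.4.0h and bcl2fastq 1.8.4 beside the build mm10, without roles. How reads were counted, and on which annotation, is not given in the sources used here. Deposited by the authors were log2 CPM of 18607 genes. From the values themselves, they appear equalised in distribution between libraries and adjusted for batch, so SDs may be too small and models without batch may overstate certainty. The table has 9 empty columns and 0 unused columns of samples.

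Differences were estimated by limma 3.58.1 under R 4.3.3 (mean-variance trend, batch as a fixed term, two-sided, all 19 libraries), adjusted over all 18607 genes. EILP 3 and EILP 4 alone make up batch 3 and inform errors, not differences. Their deposited values lie evenly on either side of the EILP mean of a gene. Ranges, medians and SDs of EILP include them, although the apparent batch adjustment sets where they are centred. Errors of differences are SE and of levels SD. Members above 2 log2 CPM that passed were to be given by library, others by group mean, and up to 2 rising and 2 falling genes of each list by p. The members, lists and tests were chosen with earlier results of these data known. Gene positions are from GENCODE (GRCm38), and the procedure was tested on simulated data. Alternatives were other batch terms, scalings, filters, variance settings and left-out libraries.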

Additional observations from a re-analysis of the deposited data

Results flagged for a closer look

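Of 90 member-and-group sets of levels examined, 10 held a single library far from the others by Dixon's test. The chance rate of about 1 in 20 holds for independent, normally distributed values. These values appear adjusted for batch, which ties libraries of 1 batch together, so the 10 are not weighed against that rate. Slc2a3 (GLUT3) was at −2.94 log2 CPM in ILCp 2, where the nearest ILCp library was at 3.39. Slc2a9 was at −1.73 in ILCp 4, beside 2.18 in the nearest. Slc2a1 (GLUT1) was at 4.69 in EILP 7, beside 5.43. Slc38a7 was at −3.23 in EILP 6, beside 2.79. Slc38a9 was high in ALP 1, at 7.27 beside 4.52, and low in EILP 1, at −2.54 beside 1.95. Both libraries are in batch 1, where an adjustment for batch would offset them against each other, so these flags need not be separate. Slc6a13 was at −2.46 in EILP 1, beside 1.60, and Slc7a5 (LAT1) was at 5.61 in EILP 1, beside 6.57. Slc16a11 was at 0.12 in ILCp 4, above −4.31 in the nearest. Slc7a8 was at −6.92 in ALP 4, beside −4.78, with all ALP libraries near the zero level. EILP 1 appears in 3 of these 10 and ILCp 4 in 2.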

How the results depend on the processing

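The difference of Slc3a2 between EILP and ALP, near zero, changed sign without ALP 7 and EILP 2 (−0.0294) and when 1 library was left out (−0.0423 to 0.159). Signs were followed only for a chosen set of the differences named above, and no other difference of that set reversed. Signs of the remaining member differences were not followed. Slc43a3 (ILCp versus ALP) kept its call in every setting except without batch 4. Between EILP and ALP, 4 members were called higher with no batch term, 5 with batch as a random effect and 1 with median centring. The 1 with median centring was Slc16a6. Members called lower numbered 2, 3 and 1 in these settings, and 0 with only the groups compared or without batch 4. With a mean above 0 log2 CPM, 0 of the 30 members left were called. That filter removed Slc16a11 before testing, so its call could not appear there. Of all genes 13.7% were called with no batch term and 18.2% with the random effect, beside 10.7% and 14.3% of members. With median centring 6.44% of all genes were called, beside 3.57% of members. Between ILCp and EILP, 3 were higher and 3 lower with no batch term, 7 and 14 with the random effect (10.7% and 37.5% of members, beside 16.4% and 44.1% of all genes). Between ILCp and ALP, 6 were higher and 4 lower with no batch term, 17 and 16 with the random effect, 1 and 2 with a mean above 0, and 1 and 2 without ALP 7 and EILP 2. With no batch term and with the random effect these are 17.9% and 58.9% of members, beside 20.7% and 62.4% of all genes. With a mean above 0 they are 10% of the 30 members tested, beside 13.6% of all genes tested. Without ALP 7 and EILP 2 they are 5.36% of members, beside 8.33% of all genes. Without batch 4 the 1 lower call was Slc43a2 (−1.03, limma adjusted p 0.0414). Leaving out 1 library gave 0 to 1 higher (1 without ALP 7 or EILP 1) and 0 to 1 lower (EILP versus ALP), 0 and 0 (ILCp versus EILP), and 0 to 2 higher and 1 to 2 lower (ILCp versus ALP). Without EILP 1, 3.57% of members were called between EILP and ALP and 7.14% between ILCp and ALP. All genes gave 4.53% and 8.42% there.

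Whether replicate numbers pair the libraries could not be read from the deposited values. For deviations from group means, of 17 same-numbered pairs 1 correlated above 0.1 (range −0.64 to 0.12). Of 19 libraries, 1 correlated best with its own number. Some of these pairs share a batch, and values that appear adjusted for batch push deviations within 1 batch in opposite directions. EILP 3 and EILP 4, the whole of batch 3, correlated with ALP 1 at −0.0292 and 0.0292. With the number as a replicate block, 0 members were higher and 1 lower between EILP and ALP, 1 higher (Slc38a1) and 0 lower between ILCp and EILP, and 5 higher and 3 lower between ILCp and ALP, where 14.3% of members and 12.7% of all genes were called (1.79% and 8.67%, and 1.79% and 7.98%, in the other 2).

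Median centring moved the median difference of all genes from 0.00 to 0.22 between EILP and ALP, from −0.08 to −0.17 between ILCp and EILP and from −0.03 to 0.09 between ILCp and ALP. Intervals within 1 log2 unit numbered 8 to 12 (EILP versus ALP), 4 to 13 (ILCp versus EILP) and 6 to 14 (ILCp versus ALP) over all settings. A pseudocount does not apply to deposited logs. Read depth is unknown, so low members are limited by an unstated number of reads.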
